A study of Homo sapiens with 6 samples.

Results

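Potassium channels were described across RNA of M14, an established human melanoma cell line, grown either as non-adherent melanospheres (3D, 3 libraries) or as a conventional adherent layer (2D, 3 libraries). Both cultures were the same line, with no treatment named in the labels. Members were the protein-coding genes of the deposited table whose symbol begins with KCN, 67 of 26748 genes. Of these, 25 encode voltage-gated subunits, 13 inward rectifiers, 9 two-pore channels, 6 calcium-activated or related channels, and 14 accessory subunits. KCNJ5-AS1 was left out, since RefSeq lists it as a long non-coding RNA although GENCODE 29 lists it as protein-coding. The labels do not say whether the 3 libraries of a culture came from separate cultures, so p-values measure the spread between libraries, which may be technical.

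Potassium channels let potassium ions pass down their gradient, which in most cells sets the resting membrane potential. Voltage-gated channels open on depolarisation, inward rectifiers pass current best near or below the potassium equilibrium potential, two-pore channels carry a steady leak, and calcium-activated channels link the membrane potential to intracellular calcium. In cancer cells they are studied for roles in cell volume, proliferation and migration. Accessory subunits bind pore-forming ones and change their gating or delivery to the membrane.

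The libraries held 16567763 to 19954987 reads assigned to genes. Pearson's r of log2 values over genes was lowest for the pairs that include 2D replicate 3 (0.943 and 0.945, against 0.984 for the remaining 2D pair). Pairs with 3D replicate 2 gave 0.966 and 0.967, against 0.987 for the remaining 3D pair. Markers of the melanocyte lineage were only partly present, and of 4 tested in a list of 10, 3 were lower in 3D (limma) and none was higher. The list summed to 1467 to 2686 normalised counts in 3D and 3071 to 3229 in 2D. MITF and ERBB3 had 271 to 309 and 556 to 1019.9 normalised counts in 3D, against 887 to 1295 and 1350 to 1531 in 2D. DCT, the third that was lower, averaged 0.619 in 3D and 70.01 in 2D. PMEL had the higher mean in 3D, 1071 against 434 in 2D, and did not pass (log2 change 1.41, limma adjusted p = 0.053). SOX10, TYR, TYRP1, MLANA, S100B and PAX3 averaged under 10 in 3D and at most 16.1 in 2D. Of 5 neuron markers, 3 were tested and 2 were higher in 3D (SNAP25 and TUBB3), and the list summed to 212 to 319 in 3D libraries and 94.4 to 109 in 2D libraries. Its part in the results on channels was not tested. Summed levels of the fibroblast list were 4527 to 5743 in 3D and 1598 to 4798 in 2D, of the leukocyte list 138 to 211 and 63.9 to 112, of the endothelial list 33.9 to 48.2 and 52.3 to 312, and of the keratinocyte list 729 to 1177 and 929 to 2133. No tested gene of these 4 lists passed the test (limma; 8 genes), and PTPRC, KDR and TEK averaged under 3 in both cultures.

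The promoters of 4 members that changed are shown, as 300 bases from RefSeq on GRCh38.p14, 5′ to 3′ on the gene's strand, from 250 bases before to 50 after the RefSeq start, with CpG dinucleotides in capitals. They are KCND1 and KCND3, pore subunits of the same voltage-gated subfamily that changed in opposite directions, and KCNK3 and KCNN4, the members whose rise kept its call whichever library was left out. Entries were found for 51 of the 67 members.
KCND1: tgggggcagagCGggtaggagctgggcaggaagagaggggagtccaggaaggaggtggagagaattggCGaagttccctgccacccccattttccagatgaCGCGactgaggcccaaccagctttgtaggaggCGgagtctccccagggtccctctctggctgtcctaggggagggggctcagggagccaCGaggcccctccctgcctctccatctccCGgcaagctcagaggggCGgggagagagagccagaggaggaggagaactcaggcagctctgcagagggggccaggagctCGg
KCND3: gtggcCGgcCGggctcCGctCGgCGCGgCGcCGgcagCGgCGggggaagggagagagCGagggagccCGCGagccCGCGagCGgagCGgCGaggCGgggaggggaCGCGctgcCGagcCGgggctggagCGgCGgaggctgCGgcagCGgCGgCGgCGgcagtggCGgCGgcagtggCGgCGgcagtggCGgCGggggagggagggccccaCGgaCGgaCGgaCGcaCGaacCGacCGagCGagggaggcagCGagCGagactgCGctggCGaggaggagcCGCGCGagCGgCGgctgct
KCNK3: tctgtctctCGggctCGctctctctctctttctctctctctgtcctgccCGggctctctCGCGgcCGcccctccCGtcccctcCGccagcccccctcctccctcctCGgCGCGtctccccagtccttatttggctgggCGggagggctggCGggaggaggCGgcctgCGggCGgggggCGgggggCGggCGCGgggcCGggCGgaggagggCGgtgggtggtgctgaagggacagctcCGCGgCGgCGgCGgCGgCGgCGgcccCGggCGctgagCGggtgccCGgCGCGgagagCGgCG
KCNN4: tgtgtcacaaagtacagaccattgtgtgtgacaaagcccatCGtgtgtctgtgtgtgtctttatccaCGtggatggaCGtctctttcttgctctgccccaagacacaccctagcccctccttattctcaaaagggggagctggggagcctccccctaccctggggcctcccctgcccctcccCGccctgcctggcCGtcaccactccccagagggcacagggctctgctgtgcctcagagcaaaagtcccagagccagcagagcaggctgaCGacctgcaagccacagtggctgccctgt
The windows are chrX:48971795-48972094 for KCND1 and chr1:111989619-111989918 for KCND3, both on the minus strand. Those of KCNK3 and KCNN4 are chr2:26692472-26692771 on the plus strand and chr19:43780924-43781223 on the minus strand. The pair from the same subfamily differed widely in CpG content, with 9 CpGs in KCND1 and 53 in KCND3, and KCNK3 had 39 and KCNN4 6. Over all 27305 promoters in the table the median was 14, and 0.63% held 53 or more. It was 23 over the 51 member promoters and 31 over the 27 of tested members. KCNIP3, which was higher in 3D, also held 53. The E-box CACGTG, a site that MITF and related factors can bind and its own reverse complement, occurred in 2 of the 51 member promoters (3.92%), KCNN4 among them, and in 7.43% of all promoters. A match in the sequence is no evidence of binding.

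With all 6 libraries, more potassium channel genes were higher than lower in the spheres. This excess was absent without 2D replicate 1 (3 higher, 4 lower), 3D replicate 1 (4 and 4) or 3D replicate 3 (2 and 4). Calls over all genes fell in these fits too, from 1950 higher and 1816 lower to 830 and 719, 609 and 698, and 534 and 656. Calls in both directions were found among voltage-gated and two-pore genes. A member was tested if it averaged at least 10 normalised counts over the 6 libraries, which 39 of the 67 did. Of these 39, 14 passed (35.9%; limma, Benjamini-Hochberg adjusted p under 0.05), against 24.1% of all 15598 genes tested. In 3D, 10 were higher (25.6%, against 12.5% of all genes) and 4 were lower (10.3%, against 11.6%). Among protein-coding genes alone, 24.5% passed, 11.0% higher and 13.5% lower. Every 3D library lay above every 2D library in 14 of the 39, against 20.5% of all genes and 17.7% of protein-coding ones, and below in 5, against 22.6% and 25.8%. The median log2 change over the 39 was 0.64, and over all tested genes it was -0.02. With 1 library left out the members' median ran from 0.42 (without 2D replicate 1) to 0.96 (without 3D replicate 2). Of the 14, KCNE3, KCNN3, KCND3 and KCNH5 averaged under 10 in one culture, so they entered the test through the other and had to differ. All libraries are bulk RNA, so fewer cells with a transcript and less of it per cell cannot be told apart.

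The falls depended less on single libraries than the rises. All 4 falls (KCNG1, KCNK15, KCND3 and KCNH5) passed in each of the 6 fits with 1 library left out, whereas of the 10 rises KCNK3 and KCNN4 did so. KCND3 and KCNH5 entered the test through 2D alone and had to differ, so only KCNG1 and KCNK15 are free of that limit. Omitting 3D replicates 1, 2 and 3 in turn left 4, 7 and 2 members higher in 3D, and omitting 2D replicates 1, 2 and 3 in turn left 3, 5 and 16. Over all 15598 genes the same omissions left 609, 1576 and 534 higher for 3D replicates, and 830, 1025 and 3526 for 2D replicates. The count of members lower was 5 on omitting 2D replicate 3 and otherwise 4, while that of all genes ran from 656 to 3585. When the libraries least like their own culture, 3D replicate 2 and 2D replicate 3, were both omitted, 20 members were higher and 6 lower. Calls rose over all 15598 genes too, from 1950 higher and 1816 lower with all 6 libraries to 4436 and 4605. In 7 of the 10 members that rose, 2D replicate 3 was the 2D library nearest to 3D, as it was in 66.4% of all genes that rose. In all 4 members that fell it was again the nearest, against 68.1% of all genes that fell.

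**Figure D1:**
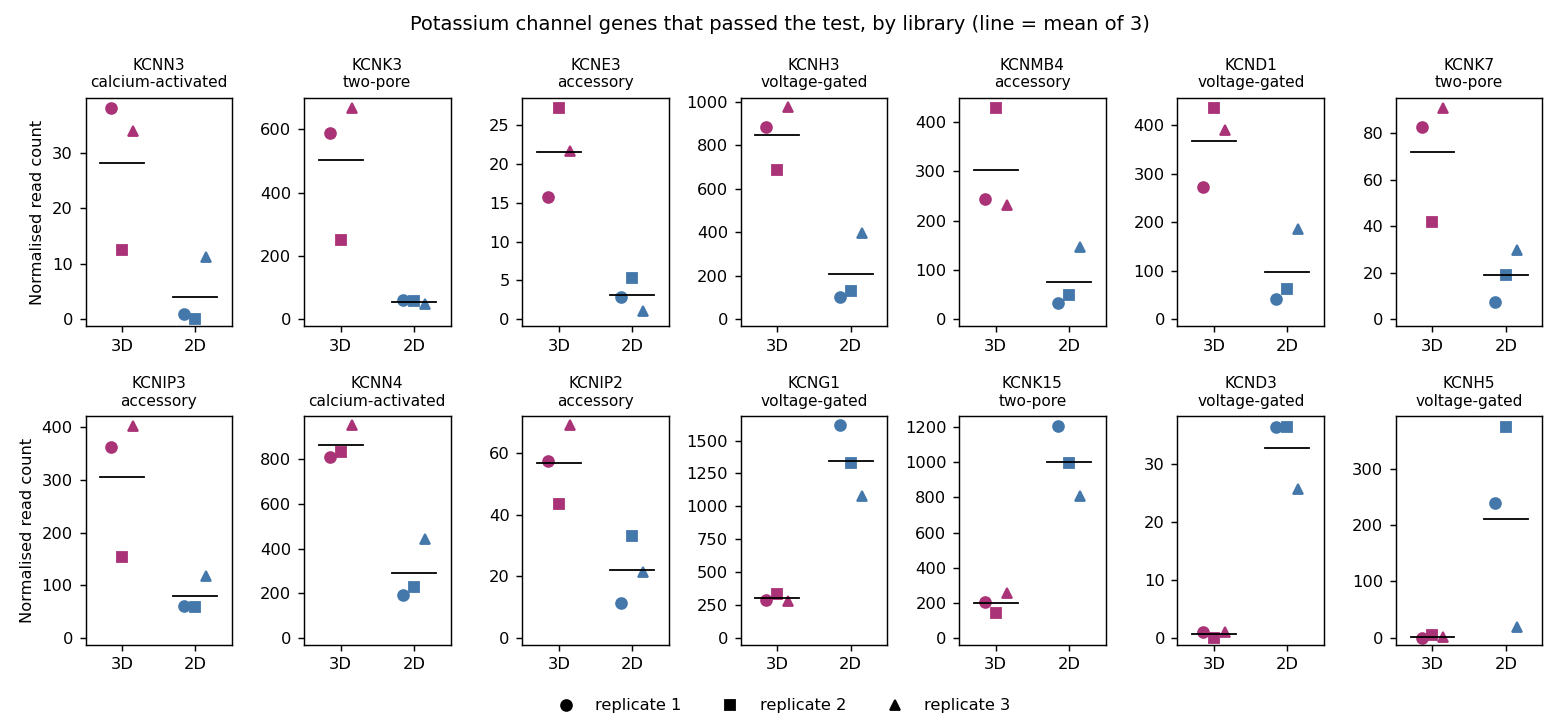
Normalised read count (linear axis, a scale of its own in each panel) of the 14 potassium channel genes that passed the test, with 3D libraries left of 2D libraries, symbols for replicates and a line at the mean of 3. In every panel the 3D and 2D points are separate, and 2D replicate 3 is often the 2D point nearest to 3D, as for KCNH5 with 19.5 against 239 and 374.

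Among voltage-gated subunits, 2 of 15 tested genes were higher (13.3%, against 12.5% of all genes). A further 3 of the 15 were lower, against 11.6% of all genes. The changes ran in opposite directions inside subfamilies. The median log2 change of the 15 was 0.57, and with 1 library left out it ran from 0.33 (2D replicate 1 or 3D replicate 3) to 0.83 (3D replicate 2 or 2D replicate 3), with 0.37 on omitting 2D replicate 2. KCND1 and KCND3 encode pores of rapidly inactivating A-type currents. KCND1 (ENSG00000102057, chromosome X, 48961378 to 48971569, GRCh38) had 273, 436 and 390.2 normalised counts in 3D replicates 1 to 3, against 41.0, 63.0 and 186 in 2D. Its 2D replicate 3 was the highest 2D library but stayed below every 3D library. The log2 change was 2.18 (SE 0.50, limma adjusted p = 0.018), with 1.72 to 2.80 over the fits with 1 library left out. Its call was lost in 4 of these 6 fits (adjusted p up to 0.076), all but those omitting 3D replicate 1 or 2D replicate 3. KCND3 (ENSG00000171385, chromosome 1, 111770662 to 111989155) had 0.928, 0 and 1.03 in 3D, against 36.2, 36.3 and 25.7 in 2D. It was thus present at a low level in every 2D library and held 2 reads in all of 3D, a ratio of 2D to 3D of 50.1 (exact 95% interval 13.6 to 423, counting error only; limma adjusted p = 0.0018). Per kilobase of merged exons, KCND1 stood at 63.1 in 3D and 16.6 in 2D, and KCND3 at 0.0831 in 3D and 4.16 in 2D.

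The ether-a-go-go type subunits showed the same kind of split, with the same limit on the lower gene. KCNH3 (ENSG00000135519, chromosome 12, 49539157 to 49558308), a member of the Elk branch found mainly in brain, had 883, 684 and 974 in 3D, against 104, 130.2 and 395 in 2D. Even the highest 2D library, replicate 3, was below the lowest 3D library. The log2 change was 2.25 (SE 0.45, limma adjusted p = 0.011; 1.88 to 2.84 with 1 library left out), and the call was lost without 3D replicate 3 (adjusted p = 0.055). KCNH5 (ENSG00000140015, chromosome 14, 62699454 to 63102037), of the Eag branch, had 0, 5.82 and 1.03 in 3D, against 239, 374 and 19.5 in 2D. Most of its 2D level lay in replicates 1 and 2, and replicate 3 was still above all 3D libraries. The log2 change was -5.68 (SE 1.11, limma adjusted p = 0.010; -6.96 without 2D replicate 3, the largest fall of the 6 fits, and -4.87 at the least). KCNH2, which encodes the HERG channel of cardiac repolarisation, had 59.7 ± 1.31 in 3D and 49.8 ± 5.91 in 2D and did not pass (limma adjusted p = 0.52). KCNH4 did not pass either, at 40.5 ± 11.8 in 3D and 32.5 ± 7.49 in 2D (all ± values are SD, n = 3 libraries).

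The voltage-gated gene with the highest level in 2D was KCNG1 (ENSG00000026559, chromosome 20, 51003656 to 51023129), a modifier that carries no current alone and joins other subunits. It had 289, 331 and 279 normalised counts in 3D, against 1616, 1332 and 1075 in 2D. The cultures were far apart, and the 3D libraries were closer together than the 2D ones. The log2 change was -2.14 (SE 0.20, limma adjusted p = 0.00061, and -2.29 to -1.999 with 1 library left out). The other modifiers tested, KCNF1, KCNG3 and KCNS3, did not pass. They averaged 19.2 to 28.4 in 3D and 17.5 to 24.5 in 2D. KCNQ1, the slow delayed rectifier pore of heart and epithelia, averaged 108 ± 51.9 in 3D and 70.3 ± 31.8 in 2D and did not pass (log2 change 0.55, limma adjusted p = 0.43). KCNC4, a pore of the shaw type, averaged 481 ± 137 in 3D and 327 ± 116 in 2D (limma adjusted p = 0.21, but 0.039 without 2D replicate 3). Without that library KCNS3 passed as well.

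**Figure D2:**
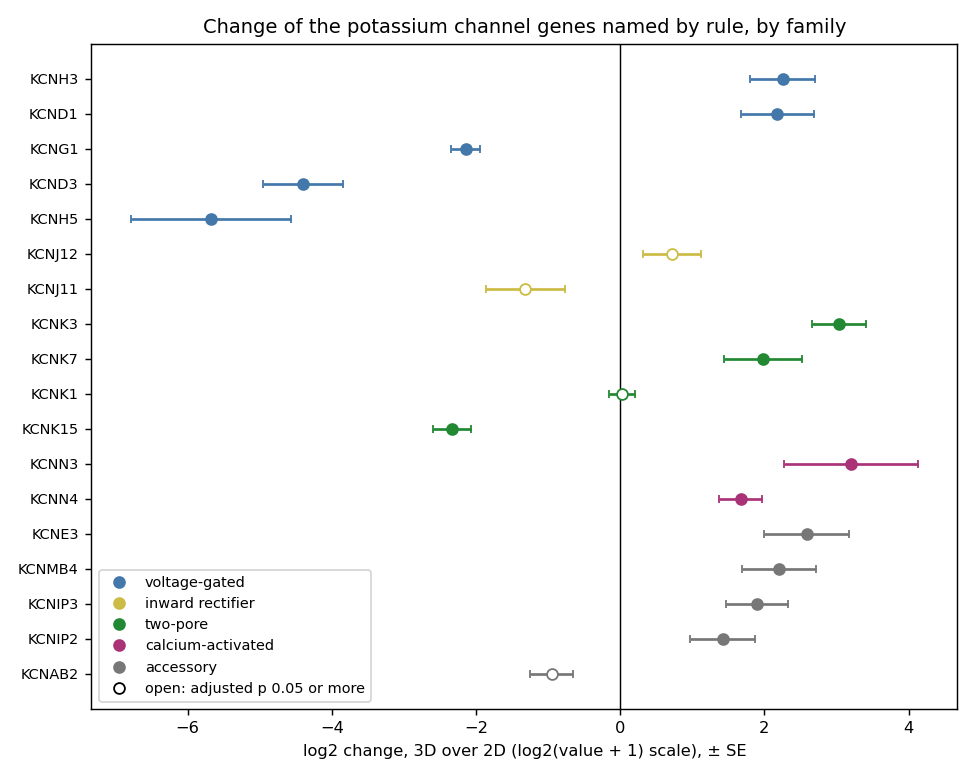
The log2 change of 3D over 2D, on the log2(value + 1) scale with its standard error, for the 14 potassium channel genes that passed and 4 abundant or most changed ones of their family that did not, coloured by family; filled points have a limma adjusted p under 0.05. Voltage-gated and two-pore genes hold filled points on both sides of 0, KCNN3 and KCNN4 lie to the right, and neither inward rectifier is filled.

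None of the 4 tested inward rectifiers passed the test (limma, against 24.1% of all genes). Of the 4, 1 had an unadjusted limma p under 0.05, and edgeR and DESeq2 also called none. Their median log2 change was -0.06, but 0.71 over the family with no filter on low values, where the median of all genes was 0.14. With 1 library left out it ran from -0.27 (without 2D replicate 1) to 0.04 (without 2D replicate 3), so it gives no direction. KCNJ12, a strong inward rectifier, was the most abundant per kilobase. It had 482, 1486 and 600 normalised counts in 3D, against 422, 373 and 617 in 2D. The excess in 3D lay in replicate 2 alone, and the cultures overlapped (log2 change 0.71, SE 0.40, limma adjusted p = 0.21; 0.23 without 3D replicate 2). KCNJ18 is a near copy, and 10.7% of the 75-base windows of KCNJ12 are shared, so reads of the pair may be misassigned. KCNJ11, the pore of the ATP-sensitive channel that closes when ATP is plentiful, had 73.3, 23.3 and 122 in 3D, against 176, 172 and 111 in 2D. One 3D library lay above one 2D library, and the log2 change of -1.32 (SE 0.55) did not pass (limma adjusted p = 0.11). That change was -0.66 without 3D replicate 2 and -1.83 without 3D replicate 3. KCNJ2 averaged 34.7 ± 6.92 in 3D and 61.7 ± 21.7 in 2D, and KCNJ14 averaged 51.1 ± 10.3 in 3D and 32.7 ± 8.86 in 2D. A further 9 inward rectifiers were too low to test. The highest of these was KCNJ5, a subunit of G protein-gated channels, with 11.1, 13.6 and 19.6 in 3D, against 0, 1.07 and 6.17 in 2D.

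Two-pore genes contributed the highest channel transcript in both cultures and a pair of large changes in opposite directions. KCNK1, a weak inward-rectifying leak channel, had 1465, 1555 and 1432 normalised counts in 3D, against 1700.2, 1540.4 and 1174 in 2D. The ranges overlapped, and per kilobase it ranked first of the 67 in both cultures, at 409 in 3D and 406 in 2D. Its log2 change was 0.03 (SE 0.18, limma adjusted p = 0.92). KCNK3 (ENSG00000171303, chromosome 2, 26692690 to 26733420), the acid-sensitive leak channel whose promoter is shown above, had 587, 250.1 and 668 in 3D, against 60.0, 58.7 and 48.3 in 2D. The 2D libraries were nearly equal, and even 3D replicate 2, the lowest of the spheres, stood well above them. The log2 change was 3.03 (SE 0.37, limma adjusted p = 0.0016; 2.77 to 3.47 with 1 library left out). KCNK15 (ENSG00000124249, chromosome 20, 44745780 to 44752313), a relative of KCNK3 that gives no current of its own in expression systems, had 207, 143 and 253 in 3D, against 1208, 994 and 810.1 in 2D. It fell by 2.33 on the log2 scale (SE 0.26, limma adjusted p = 0.0010; -2.52 to -2.11 with 1 library left out). Of its exon bases, 21.7% overlap RIMS4 on the other strand, and the kit does not mark strand. RIMS4 itself had 976, 780.4 and 984 in 3D, against 2975, 2752 and 1400.2 in 2D, so reads of the overlap cannot be assigned with certainty to either.

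Per kilobase, KCNK3 stood at 80.6 in 3D and 8.95 in 2D, whereas KCNK15 stood at 77.4 in 3D and 386 in 2D. The pair was therefore close in level in the spheres and widely unequal in the adherent cells. KCNK7 (ENSG00000173338, chromosome 11, 65592855 to 65595996), which is not known to conduct on its own, had 82.6, 41.7 and 90.8 in 3D, against 7.62, 19.2 and 29.8 in 2D. Its log2 change was 1.98 (SE 0.54, limma adjusted p = 0.032; 1.47 to 2.38 with 1 library left out). Its call held only on omitting 3D replicate 2 or 2D replicate 3 (adjusted p up to 0.13 otherwise). KCNK5, an alkaline-sensitive channel linked to cell volume control, averaged 493 ± 184 in 3D and 304 ± 53.4 in 2D. It did not pass (limma adjusted p = 0.16, but 0.033 without 3D replicate 2). KCNK6 and KCNK12 were low and did not pass, although KCNK6 did without 2D replicate 3 (limma adjusted p = 0.045). In all, 2 of 7 tested two-pore genes were higher (28.6%, against 12.5% of all genes) and 1 was lower (14.3%, against 11.6%). Their median log2 change was 0.63. The median was 1.04 with no filter, 0.38 without 3D replicate 3 and 0.96 without 3D replicate 2.

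**Figure D3:**
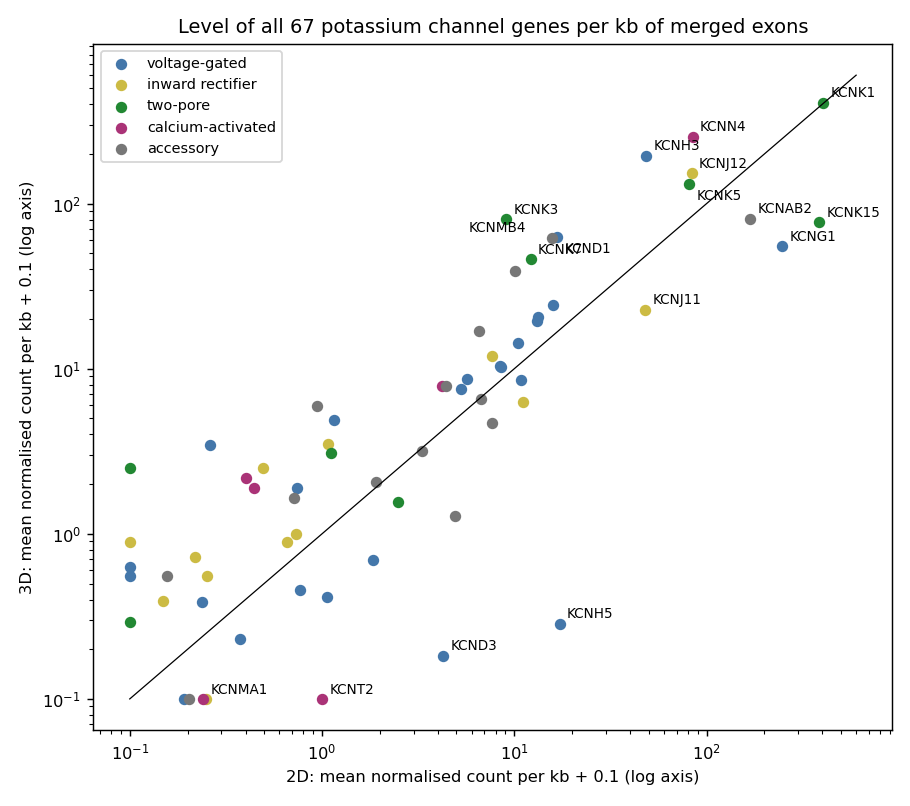
Mean normalised count per kilobase of merged exons, plus 0.1, in 3D (vertical, log axis) and in 2D (horizontal, log axis) for all 67 genes, coloured by family, with a line of equal level. KCNK1 lies on the line at the top, KCNN4, KCNH3 and KCNK3 lie above it, and KCNK15, KCNG1, KCNH5 and KCND3 lie below it.

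Of 6 calcium-activated or related channels 4 were tested. Of the 4, 2 were higher in 3D (against 12.5% of all genes) and none was lower (against 11.6%). Their median log2 change was 2.14. KCNN3 and KCNT1 met the minimum through 3D alone, whereas KCNMA1 and KCNT2, without a read in 3D, did not meet it. With no filter the median was 1.28, and 2 genes were higher and 2 lower. KCNN4 (ENSG00000104783, chromosome 19, 43766533 to 43781261) encodes the intermediate-conductance channel of lymphocytes, red cells and many tumour cells. It had 811, 833 and 955 normalised counts in 3D, against 194, 229.5 and 442 in 2D. The 3D libraries were close together and lay above every 2D library, with replicate 3 the highest of 2D. The log2 change was 1.67 (SE 0.30, limma adjusted p = 0.0072; 1.44 to 2.03 with 1 library left out). Per kilobase KCNN4 had rank 2 of the 67 in 3D, at 254, and rank 5 in 2D, at 84.7. KCNN3 (ENSG00000143603, chromosome 1, 154697455 to 154870280), a small-conductance channel, was far lower, with 38.0, 12.6 and 34.1 in 3D, against 0.953, 0 and 11.3 in 2D. Nearly all of its 2D signal was in replicate 3. Its log2 change was 3.20 (SE 0.93, limma adjusted p = 0.039), and the call was lost without any library other than 2D replicate 3 (adjusted p up to 0.14). The change was 4.25 without 2D replicate 3 and 2.43 without 2D replicate 2. KCNN1 did not pass, at 30.8 ± 15.5 in 3D and 16.3 ± 9.21 in 2D.

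The large-conductance and sodium-activated channels were scarce. KCNMA1, the large-conductance pore, had no reads in 3D, against 5.72, 2.14 and 7.20 normalised counts in 2D, and was at least 5.14-fold lower in 3D by the limit of 3 reads over the culture. KCNT2, a sodium-activated pore, likewise had no reads in 3D, against 3.81, 1.07 and 14.4 in 2D, at least 6.58-fold lower. Both were under the test's minimum, so no p-value belongs to these bounds. Without the minimum, both passed in the lower direction. KCNT1, the other sodium-activated gene, went the other way, with 28.8, 11.6 and 24.8 in 3D, against 0, 3.20 and 9.25 in 2D. It missed the threshold (log2 change 2.60, limma adjusted p = 0.057, and 0.0074 without 2D replicate 3).

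Of 9 tested accessory subunits, 4 were higher in 3D (44.4%, against 12.5% of all genes) and none was lower (against 11.6%). Their median log2 change was 0.99. The median was 0.38 without 2D replicate 1, at most 1.31 in the other fits with 1 library left out, and 0.23 with no filter. KCNIP2 and KCNIP3 are calcium-binding partners of the KCND pores, and KCNIP3 is also known as a transcriptional repressor. KCNIP3 (ENSG00000115041, chromosome 2, 95297304 to 95386083) had 363, 153 and 404 normalised counts in 3D, against 61.0, 58.7 and 117 in 2D. Its log2 change was 1.90 (SE 0.43, limma adjusted p = 0.017; 1.64 to 2.34 with 1 library left out). KCNIP2 (ENSG00000120049, chromosome 10, 101825974 to 101843920) had 57.5, 43.6 and 69.2 in 3D, against 11.4, 33.1 and 21.6 in 2D. The libraries did not overlap for either gene. KCNIP2 was just past the threshold (log2 change 1.42, SE 0.45, limma adjusted p = 0.049) and lost its call with edgeR, with a pseudocount of 0.1, with no filter, with the replicate number as a block (limma adjusted p = 0.072) and without 4 of the 6 libraries. Those were 2D replicate 1 and each 3D library (adjusted p up to 0.17). On the other strand, 12.2% of its exon bases overlap KCNIP2-AS1, which averaged 13.4 ± 4.60 in 3D and 1.71 ± 2.97 in 2D. The call of KCNIP3 held in 2 of the 6 fits, those omitting 3D replicate 2 or 2D replicate 3 (adjusted p up to 0.0803 otherwise). KCNIP4 was level, at 27.6 ± 1.55 in 3D and 28.2 ± 7.88 in 2D.

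KCNMB4 (ENSG00000135643, chromosome 12, 70366276 to 70434292), the neuronal beta subunit of the large-conductance channel, had 245, 429 and 232 normalised counts in 3D, against 33.4, 49.1 and 146 in 2D. The log2 change was 2.20 (SE 0.52, limma adjusted p = 0.019; 1.76 to 2.81 with 1 library left out). Its call held without 2D replicate 3 and was lost without any other library (adjusted p up to 0.063). It thus stood at 302 ± 110.4 in 3D, where its pore KCNMA1 had no reads. KCNE3 (ENSG00000175538, chromosome 11, 74454841 to 74467729), a single-pass partner that keeps KCNQ1 channels open, had 15.8, 27.1 and 21.7 in 3D, against 2.86, 5.34 and 1.03 in 2D. It was low but separate in every library, with a log2 change of 2.58 (SE 0.58, limma adjusted p = 0.017; 2.16 to 2.98 with 1 library left out). Omitting 3D replicate 1 or 3, or 2D replicate 1, ended the call (adjusted p up to 0.076), and 16.6% of its exon bases overlap a gene on the other strand.

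KCNAB2, a cytosolic beta subunit, was the most abundant accessory gene. It had 726, 859 and 731 normalised counts in 3D, against 1165, 1129 and 2513 in 2D. Every 3D library lay below every 2D library, and 2D replicate 3 was far above the rest. Its log2 change of -0.95 (SE 0.30) was just short of the threshold (limma adjusted p = 0.0502). It passed with edgeR, DESeq2, TMM scaling, a pseudocount of 10 or no filter, with the replicate block (limma adjusted p = 0.0457), and without 2D replicate 3 (log2 change -0.57, adjusted p = 0.015). KCNAB1 and KCNAB3 did not pass, at 31.5 ± 13.0 and 35.5 ± 11.0 in 3D and 51.7 ± 24.0 and 19.7 ± 11.3 in 2D. KCNMB3 also did not pass, and 21.3% of its sequence windows and 47.5% of its exon bases are shared with other genes, so its counts are uncertain.

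**Figure D4:**
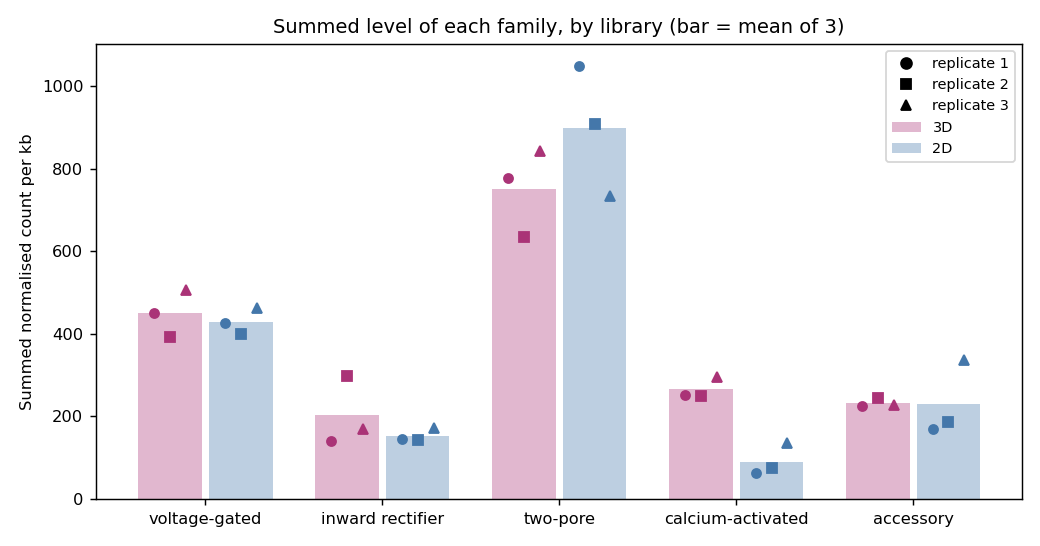
Summed normalised count per kilobase of merged exons of each family in each library (points), with bars at the mean of 3 from 0, and 3D left of 2D. Only in the calcium-activated family do the 3D points (249.9 to 296) all lie above the 2D points (61.9 to 135).

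The summed level of channel transcripts overlapped between the cultures, and KCNK1 was the highest gene per kilobase in both. Of the families, only the voltage-gated one had a different leading gene per kilobase in 3D and 2D. All 67 members together reached 529, 512 and 562 CPM in 3D, against 433, 436 and 514 CPM in 2D. Per kilobase, the sum of the calcium-activated family was 251, 249.9 and 296 in 3D, against 61.9, 74.3 and 135 in 2D, and KCNN4 made up 95.6% of its mean in 3D and 93.6% in 2D. The two-pore sum was 776, 635 and 843 in 3D, against 1049, 909 and 735 in 2D, and the cultures overlapped. The voltage-gated sum also overlapped, at 451, 392 and 506 in 3D, against 426, 398 and 463 in 2D, but its leading gene differed. KCNH3 made up 43.4% of the voltage-gated mean per kilobase in 3D, and KCNG1 made up 57.5% of it in 2D. Inward rectifiers summed to 141, 298 and 169.6 in 3D, against 146, 142 and 172 in 2D. Accessory genes summed to 224, 244 and 227 in 3D, against 168, 185 and 337 in 2D. Members are not replicates of a culture, so these sums and the contrasts between families were not tested.

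The 28 members too low to test averaged 0.318 to 8.59 normalised counts over the 6 libraries, and 18 of them had the higher mean in 3D. No such share was computed over all low genes. Every 3D library held reads for more genes (22458 to 23572) than every 2D library (20841 to 21772). With no filter the median log2 change of all genes was 0.14, against -0.02 with it, so a tilt of low genes to 3D was not particular to channels. KCNA7, a shaker type pore, had 19.5, 5.82 and 18.6 in 3D, against 0, 2.14 and 0 in 2D, which is 45 reads in 3D and 2 in 2D. The ratio of 3D to 2D was 20.6 (exact 95% interval 5.65 to 184, counting error only). KCNK4, a mechanosensitive two-pore channel, had 2.78, 5.82 and 10.3 in 3D but not 1 read in 2D, which puts 3D at least 6.21-fold higher. Of its sequence windows 51.4% also occur in the readthrough transcript KCNK4-TEX40, so its counts are uncertain. Reads were absent from 3D in 5 of the 28 and from 2D in another 5.

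Genes that work with potassium channels were examined next to them, from lists written with earlier results of these data known. Of 7 tested channel partners outside the KCN symbols, 1 was higher and none lower, with a median log2 change of 0.20. That was TMEM38A, an intracellular cation channel of the reticulum, at 999 ± 234 in 3D and 549 ± 94.5 in 2D (log2 change 0.85, SE 0.23, limma adjusted p = 0.032). Of 18 tested pump and cotransporter genes, 2 were higher and 2 lower (median log2 change 0.22). Over all genes tested, 12.5% were higher and 11.6% lower, so the counts of this list were near those shares. The beta subunits of the sodium-potassium pump moved in opposite directions. ATP1B1 had 9527, 8433 and 9564 in 3D, against 3818, 3351 and 5248 in 2D (log2 change 1.17, SE 0.20, limma adjusted p = 0.0066). ATP1B3 had 3876, 5113 and 4140.4 in 3D, against 11089, 9003 and 9423 in 2D (log2 change -1.17, SE 0.18, limma adjusted p = 0.0044). WNK1, a kinase that controls cation-chloride cotransporters, was lower, at 5262 ± 435 in 3D and 8466 ± 2005 in 2D (log2 change -0.66, SE 0.21, limma adjusted p = 0.049). The calls of ATP1B1 and ATP1B3 held whichever library was left out. TMEM38A kept its call without 2D replicate 3 or 3D replicate 2 only (adjusted p up to 0.13 in the others). Among these fits, WNK1 kept its call only without 2D replicate 3 (adjusted p up to 0.16 in the others). It also lost its call with the replicate block (limma adjusted p = 0.091), edgeR, a pseudocount of 0.1, no filter or equal library totals.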

How the data were processed

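Poly(A) RNA of 6 M14 libraries (3 each of 3D and 2D) was sequenced on an Illumina NovaSeq from TruSeq RNA (v2) libraries, which do not mark strand, per the labels' protocols. HISAT2, featureCounts 1.5.0 and DESeq2 with GRCh38 are named in the submitters' processing notes; no annotation release is named there. The deposited signal is a read count per gene that the authors divided by 1 size factor per library, as the values show: 100% came out as whole reads within 0.01 of a read. Symbols, lengths and coordinates came from a name table and GENCODE 29.

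Genes averaging at least 10 were tested with limma 3.58.1 (R 4.3.3) on log2(value + 1), trended eBayes and Benjamini-Hochberg adjustment over 15598 genes, with no covariate besides culture. This scale understates changes of low genes. edgeR 4.0.16 (8 members higher, 5 lower) and DESeq2 1.42.0 (12 and 5) were run on the whole reads. Levels were compared between genes as normalised counts per kilobase of merged exons. Other alternatives were pseudocounts, filters, scalings, a replicate block and left-out libraries. A limit of 3 reads per culture set bounds for genes at 0, and 75-base windows measured shared sequence. The workflow was tested on simulated counts.

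Named were members past the threshold and, per family, the most abundant per kilobase and the most changed, with up to 3 partner genes per list and direction. KCNC4, KCNK4, KCNK5, KCNK6, KCNH2, KCNT1, KCNA7, KCNMA1, KCNT2 and other members were named after their values were seen. Members and lists were chosen with earlier results of these data known. Some members and partner genes are counted but not reported here by name.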

Additional observations from a re-analysis of the deposited data

How the results depend on the processing

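Depth limits the 28 untested members most, since a few reads decide their values. The number of members higher in 3D (10) was 6 at a mean of at least 50, 8 with a pseudocount of 0.1 or edgeR, 9 with the replicate block, 13 with no filter, 12 with a pseudocount of 10 or DESeq2, and 20 without 2D replicate 3 and 3D replicate 2. It ran from 2 to 16 with 1 library left out. The number lower (4) was 7 with no filter and ran from 4 to 5 with 1 library left out. With no filter, higher in 3D were 2 inward rectifiers, and lower were 2 calcium-activated or related genes (KCNMA1 and KCNT2) and 1 accessory gene. At a mean of at least 50, higher were 1 two-pore, 1 calcium-activated and 2 accessory genes. Calcium-activated genes higher numbered 1 with a pseudocount of 0.1 or edgeR. KCNAB2 made 1 accessory gene lower with a pseudocount of 10, TMM scaling, the replicate block, edgeR or DESeq2. Without 2D replicate 3 and 3D replicate 2, voltage-gated genes higher were 8, two-pore 4 and inward rectifiers 1, with 1 inward rectifier and 1 accessory gene lower. With accessory subunits counted with their channels, 5 voltage-gated genes were higher. With 1 library left out, the genes higher ran from 0 to 6 (voltage-gated), 1 to 3 (two-pore), 1 to 3 (calcium-activated) and 0 to 4 (accessory), and accessory genes lower from 0 to 1.

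The log2 change of KCNK1 ran from -0.13 to 0.14 with 1 library left out, and its sign reversed on omitting 3D replicate 2 (-0.0058), 2D replicate 3 (-0.13) or both (-0.16). Over all genes, higher calls ran from 534 to 3526 and lower calls from 656 to 3585 with 1 library left out, with 4436 and 4605 without 2D replicate 3 and 3D replicate 2. Equal library totals moved the median of all genes from -0.02 to 0.11 and left the calls at 10 and 4. Same-numbered libraries did not deviate together (correlations -0.08, -0.14 and 0.04). With 3 libraries per culture this cannot exclude pairing, which the labels do not state. The block gave 9 higher and 5 lower. The causes were not tested.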

Other observations

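Besides the 67 coding members, 10 rows of the table had a symbol beginning with KCN but were not counted as coding, of which 2 were tested and neither passed with limma. KCNK15-AS1, an antisense transcript of KCNK15, averaged 29.6 ± 6.61 normalised counts in 3D and 47.6 ± 4.84 in 2D (log2 change -0.68, SE 0.34, limma adjusted p = 0.17). KCNJ5-AS1 had 191, 169 and 189 in 3D, against 100.1, 90.7 and 190.2 in 2D, so that 2D replicate 3 lay among the 3D libraries (limma adjusted p = 0.18). KCNC4-DT, too low to test, had 3.71, 3.88 and 1.03 in 3D, against 10.5, 12.8 and 7.20 in 2D, while KCNC4 itself had the higher mean in 3D. KCNQ1OT1, the imprinted antisense transcript of KCNQ1, had 5.57, 0.969 and 0 in 3D and not 1 read in 2D.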
